A study of Rattus norvegicus with 6 samples.

Results

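The 200 long noncoding RNAs (lncRNAs) described here were those whose array signal divided the 6 hippocampus samples most widely along a line that cut across the study's groups. They were chosen from the measurements. A probe for an lncRNA was taken when all 6 of its log2 values were at least 5, when denervated 1, denervated 3 and normal 2 all lay above or all lay below denervated 2, normal 1 and normal 3, and when the absolute difference between the means of these samples was among the 200 largest. Denervated 1, denervated 3 and normal 2 are called set A, and denervated 2, normal 1 and normal 3 are called set B. These sets were defined by measured values and mix the study's groups, and they are not treatment groups. The array held 6711 lncRNA probes, of which 5963 had all 6 values at or above 5. Of the 200 members, 45 were higher in set A and 155 were lower in set A. Since the levels in the sets chose the members, the differences between the sets are a description and carry no test.

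The samples were total RNA from the hippocampus of adult Sprague-Dawley rats, 3 from denervated tissue taken 7 days after fimbria-fornix (FF) transection and 3 from normal tissue. The study's methods describe rats of both sexes as paired, and neither the sex of a sample nor which samples shared a rat was given in the sources used here. The FF is the fibre bundle that brings cholinergic input from the basal forebrain to the hippocampus, and its transection removes that input. Each sample was labelled with a single dye and read on a RiboArray lncDETECT rat array, and each value is a log2 normalized intensity, so that a difference of 1 is a 2-fold difference. The whole hippocampus was measured in bulk, so fewer cells of a type and less RNA per cell cannot be told apart. With 3 samples in each group, p-values measure only the spread between these samples.

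The 6 arrays had median values between 10.17 and 10.19. The number of probes under 5 was 257 in denervated 1, 411 in denervated 3, 428 in normal 2, 227 in denervated 2, 314 in normal 1 and 278 in normal 3. Denervated 3 and normal 2, both in set A, had the most probes at low values, whereas denervated 1 lay within the range of set B. The part of these low values in the division was not tested. Of the neuronal transcripts listed for a check of the tissue, Bc1, a cytoplasmic RNA of neuronal dendrites, lay between 15.97 and 15.99 in every sample, at the top of the array's scale, so that it shows a high signal but not whether the samples were alike. Mir132, an activity-regulated neuronal microRNA gene, lay between 13.31 and 13.70. Mir124-3, a gene for the abundant neuronal miR-124, ranged from -0.22 to 7.60. Mir9-2, also on that list, ranged from -0.61 in normal 2 to 7.93 in denervated 2. Neither was usable as a marker here. No lncRNA that defines the hippocampus itself was among the markers.

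LncRNAs are transcripts with no long open reading frame. Some act in the nucleus on chromatin or on splicing, some bind proteins or other RNAs in the cytoplasm, and some are the precursors from which small RNAs are cut. In the adult hippocampus, where neural stem cells of the subgranular zone keep producing neurons, lncRNAs and microRNAs take part in the choice between proliferation and differentiation. A microRNA guides its silencing complex to messenger RNAs mainly through its seed, the bases 2 to 8 from its 5′ end. The array carried probes for microRNA precursor genes among its lncRNAs, and 5 with a rat RefSeq symbol were members: Mir130a, Mir294, Mir3580, Mir409 and Mir20b. Their mature sequences are shown because these are the members for which the rat RefSeq records used here gave a mature product. They were taken from RefSeq on the GRCr8 assembly and are written 5′ to 3′ with the seed in capitals. The probes were annotated to the precursor records, so their signals are not measurements of these mature forms.
rno-miR-130a-3p: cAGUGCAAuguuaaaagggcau
rno-miR-130a-5p: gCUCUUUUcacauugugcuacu
rno-miR-20b-5p: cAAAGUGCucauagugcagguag
rno-miR-20b-3p: aCUGCAGUgugagcacuucugg
rno-miR-3580-5p: uGCUUGUAcuuauucuggugac
rno-miR-3580-3p: uGACUAGGguaguaugaguaga
rno-miR-409a-5p: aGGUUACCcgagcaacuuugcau
rno-miR-409a-3p: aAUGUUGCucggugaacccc
rno-miR-294: cUCAAAAUggaggcccuaucu
No seed occurred in more than 1 of these sequences. Mir130a, Mir3580 and Mir20b were higher in set A, and Mir294 and Mir409 were lower in set A. On GRCr8 the genes lay on chromosomes 3 (Mir130a), X (Mir3580 and Mir20b), 6 (Mir409) and 1 (Mir294).

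The division itself was common on the array. Of the 5963 lncRNAs with all 6 values at or above 5, 2327 (39.0%) were fully divided between the sets, 1370 (23.0%) higher and 957 (16.0%) lower in set A. The divided lncRNAs that were lower in set A differed by more, with a median absolute difference of 1.23 against 0.74 for those that were higher. Above a difference of 1 there were 383 higher and 581 lower, and above 2 there were 53 higher and 180 lower. Choosing by size therefore took mostly lncRNAs that were lower in set A. The members' median absolute difference was 2.43, a 5.40-fold difference, beside 0.54 over the 5963 lncRNAs, whose median signed difference was 0.21. Among the members, 31 differed by more than 3, of which 9 were higher and 22 lower in set A. The smallest members were lncRNA2277 (-2.09) and lncRNA133 (-2.08), and the divided lncRNAs just outside the limit were lncRNA382 (-2.08) and lncRNA3253 (-2.08), so the boundary fell within a continuous run of values.

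**Figure D1:**
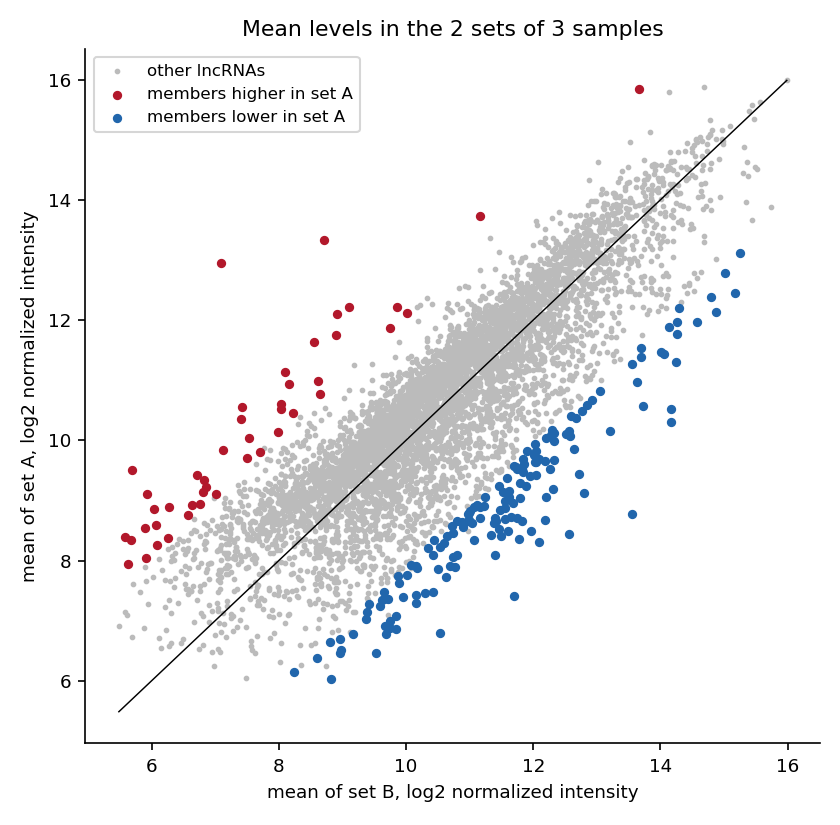
Mean log2 normalized intensity in set B (horizontal axis) and in set A (vertical axis) for the 5963 lncRNAs with all 6 values of at least 5, 1 point per lncRNA, with the line of equal means. The 45 members higher in set A lie above the line and the 155 members lower in set A lie below it, at the outer edges of the cloud.

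The 10 members with the largest excess in set A had differences between 2.95 and 5.86. LncRNA3384, a predicted RefSeq transcript (XR_085989.3), had the widest difference of all, 58.0-fold. Its level was 13.06 in denervated 1, 12.78 in denervated 3 and 13.01 in normal 2, and 5.59 in denervated 2, 7.86 in normal 1 and 7.82 in normal 3. The samples of set A lay close together, 4.92 above the nearest sample of set B, and denervated 2 was the lowest sample of all. LncRNA4662, annotated by a match to mouse NR_033523 at chr16:20525227-20526605 on the plus strand, was at 12.85, 13.56 and 13.60 in denervated 1, denervated 3 and normal 2, against 10.56, 8.36 and 7.21 in denervated 2, normal 1 and normal 3. Here denervated 2 was the highest sample of set B, and its distance from the normal samples of that set was larger than the whole spread of set A. The genome build of the array's coordinates was not given in the sources used here.

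LncRNA854, matched to mouse NR_034038 at chr14:10789255-10795847, lay at 9.23, 9.16 and 10.15 in denervated 1, denervated 3 and normal 2 and at 6.25, 5.19 and 5.64 in denervated 2, normal 1 and normal 3. The normal sample was the highest in set A and the denervated sample the highest in set B, so no order of the treatment groups held across both sets. LncRNA272, the Ensembl transcript ENSRNOT00000034494 at chrX:133586912-133587565, lay at 9.64, 9.03 and 8.68 in set A in the same order of samples and at 5.95, 5.90 and 5.95 in set B. The 3 samples of set B were nearly equal at a low level. The other members of these 10 were lncRNA2355 (3.19), lncRNA3241 (3.14), lncRNA6500 (3.11), lncRNA2587 (3.08), lncRNA6472 (3.03) and lncRNA3093 (2.95), each given with its difference between the set means. LncRNA2355 lay on chromosome X as well, and of these lncRNA6500 had the widest spread inside set A, from 10.79 in denervated 3 to 13.25 in denervated 1.

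Among the members lower in set A, lncRNA729, matched to mouse NR_074087 at chr7:11180230-11187231 on the minus strand, had the widest difference, -4.77 or 27.3-fold. It was at 8.36 in denervated 1, 9.06 in denervated 3 and 8.93 in normal 2, and at 13.11 in denervated 2, 13.68 in normal 1 and 13.88 in normal 3. Both sets were tight, and no sample came within 4.05 of the other set. LncRNA5293, matched to mouse NR_002899 over a stretch of 108 bases at chr5:117873067-117873174, was at 7.13, 7.55 and 7.57 in denervated 1, denervated 3 and normal 2 and at 11.86, 11.79 and 11.42 in denervated 2, normal 1 and normal 3. LncRNA532, matched to mouse NR_045100 at chr10:24009119-24010391, was at 8.17, 8.73 and 8.44 and at 12.35, 12.78 and 12.56 in the same order. In both, the distance between the sets was several times the range of either set. In set B denervated 2 was the highest sample for lncRNA5293 and the lowest for lncRNA532.

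LncRNA1437, matched to mouse NR_029552 over 71 bases at chr19:11127483-11127553, had even levels, with 8.51, 8.96 and 8.53 in denervated 1, denervated 3 and normal 2 and 12.22, 12.22 and 12.13 in denervated 2, normal 1 and normal 3. LncRNA3637, the Ensembl transcript ENSRNOT00000003260, was uneven, with 9.45, 5.52 and 5.43 in set A and 11.42, 10.15 and 10.02 in set B in the same order of samples. Its denervated 1 sample lay only 0.57 below the nearest sample of set B, while denervated 3 and normal 2 were far lower. The remaining members of these 10, besides the Fam98c transcript described next, were lncRNA1626 (-3.79), lncRNA6573 (-3.67), lncRNA1472 (-3.66) and lncRNA1185 (-3.47), and in each of them the gap between the sets exceeded 2.

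**Figure D2:**
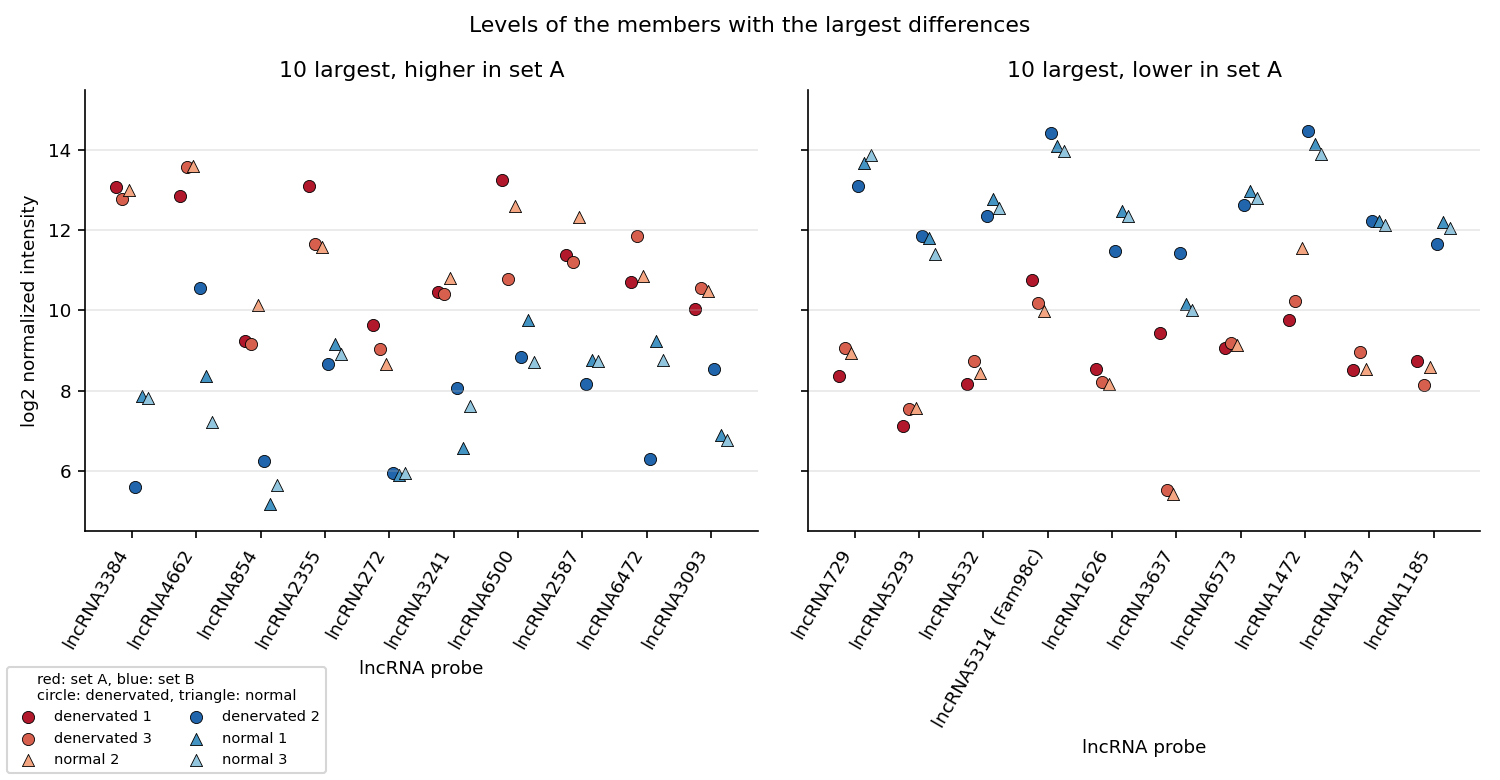
Log2 normalized intensity (vertical axis) of the 10 members with the largest difference in each direction, 1 point per sample, with set A in reds, set B in blues, circles for denervated and triangles for normal samples. The red and blue points do not overlap for any probe, from lncRNA3384 (5.86) to lncRNA729 (-4.77), while each colour holds both circles and triangles.

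RefSeq gene symbols were available for 8 members. Fam98c, which gives rise to the noncoding RefSeq record NR_037147.1 measured by lncRNA5314, had the largest difference of them, -3.85 or 14.5-fold. It was at 10.75 in denervated 1, 10.19 in denervated 3 and 9.98 in normal 2 and at 14.43 in denervated 2, 14.09 in normal 1 and 13.96 in normal 3. Patz1 encodes a zinc finger transcription factor with a POZ domain, and its noncoding variant NR_102354.1 (lncRNA4524) was at 10.81, 10.92 and 11.23 in denervated 1, denervated 3 and normal 2, against 9.99, 7.74 and 8.10 in denervated 2, normal 1 and normal 3. Set A was even for Patz1, and in set B the denervated sample lay 2.07 above the mean of the normal samples. Selenok-ps2, a pseudogene of the endoplasmic reticulum selenoprotein K (lncRNA6648), was at 7.77, 9.18 and 9.05 and at 10.50, 11.60 and 10.32 in the same order, with no order of the groups inside either set. For a pseudogene, the probe's ability to tell the copy from its parent gene was not given.

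Of the microRNA precursor genes, Mir130a, whose 3p product belongs to a family shared with miR-301, was at 9.00, 9.25 and 9.45 in denervated 1, denervated 3 and normal 2 (lncRNA1804). In set B it was at 5.18 in denervated 2, 6.99 in normal 1 and 8.39 in normal 3, so the difference of 2.38 rested mostly on denervated 2 and normal 1. Mir20b, part of an X-linked microRNA cluster related to the miR-17 family, was at 8.30, 7.62 and 8.21 in set A and at 6.90, 5.30 and 5.52 in denervated 2, normal 1 and normal 3 (lncRNA4545). Mir3580 was at 8.64, 9.13 and 8.98 in set A and at 8.42, 6.16 and 5.31 in set B in the same order of samples (lncRNA2135). In both, denervated 2 was the sample of set B nearest to set A, and for Mir3580 it was only 0.22 below denervated 1.

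Mir294, which in the mouse belongs to a microRNA cluster of embryonic stem cells, was at 8.49, 8.06 and 5.52 in denervated 1, denervated 3 and normal 2, against 9.84, 9.74 and 9.59 in denervated 2, normal 1 and normal 3 (lncRNA2637). Mir409, from the large imprinted microRNA cluster of the Dlk1-Dio3 region, was at 8.50, 8.13 and 7.10 and at 10.21, 9.9998 and 10.26 in the same order (lncRNA2565). For both, set B was even, and normal 2 was the lowest sample of all. Over the probes with a rat RefSeq microRNA symbol, 256 of 293 had all 6 values at or above 5, and 97 of these (37.9%) were divided, beside the 39.0% of all such lncRNAs. By direction 59 of them were higher and 38 lower in set A. The 5 members made up 1.95% of the 256, beside 3.35% for all lncRNAs. Mouse-matched probes to short stretches, which may hold further precursors, are not in these counts and are described with the positions.

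The rule places the samples of a set on the same side of the other set in every member, and the median levels follow this. The members higher in set A had median levels of 9.78 in denervated 1, 9.91 in denervated 3 and 10.12 in normal 2, and of 7.73 in denervated 2, 6.99 in normal 1 and 7.56 in normal 3. The members lower in set A had median levels of 9.45, 8.90 and 8.62 in set A and of 11.69, 11.48 and 11.37 in set B in the same order of samples. A probe's signal depends on the probe as well as on its RNA, so these medians describe the range of signal in which the members lay. By mean signal over the 6 samples, 87 of the 200 members lay above the median of all lncRNAs, and 4 were among the 200 brightest. For the members lower in set A, the median of the set B means was 11.56 and that of the set A means 8.79, on either side of the median signal of 10.42 over the 5963 lncRNAs. For the members higher in set A both medians, 9.84 in set A and 7.41 in set B, lay below it.

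**Figure D3:**
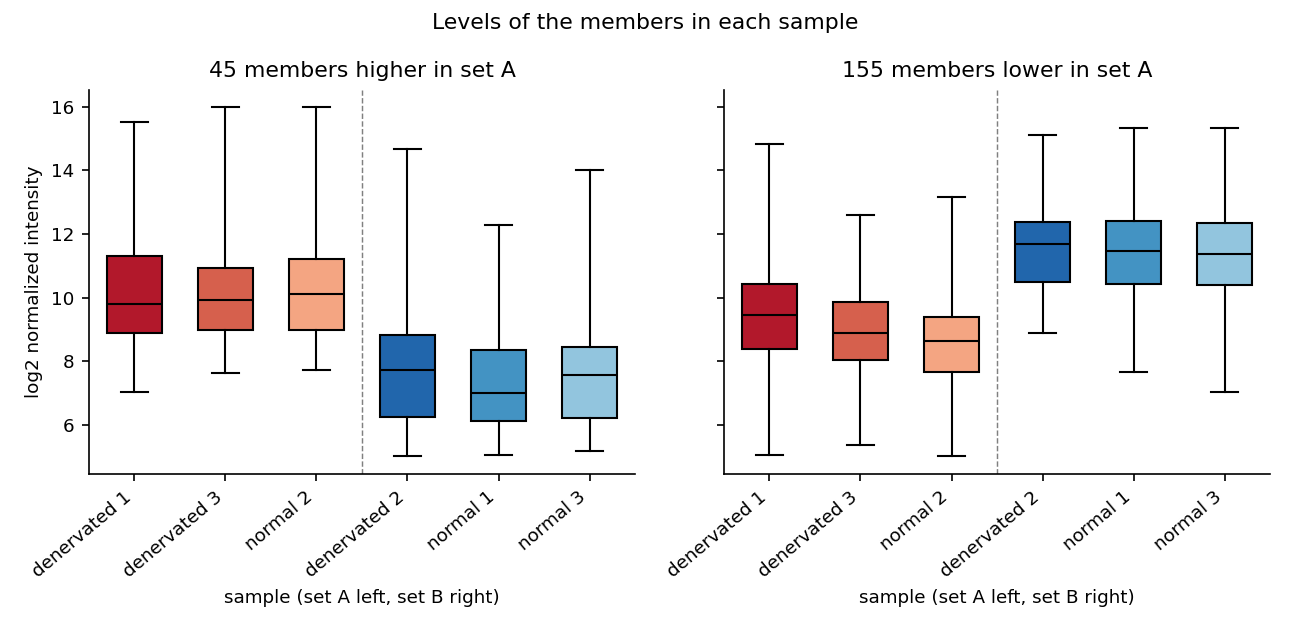
Log2 normalized intensity (vertical axis) of the 45 members higher in set A and the 155 members lower in set A in each of the 6 samples, with boxes from the lower to the upper quartile, a line at the median and whiskers to the lowest and highest value. Among the members lower in set A, the medians of set A step from 9.45 in denervated 1 to 8.62 in normal 2, while those of set B lie between 11.37 and 11.69.

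Within set A, the median standard deviation of a member over its 3 samples was 0.55, against 0.34 within set B. Over all 5963 lncRNAs these medians were 0.37 and 0.30. For the members lower in set A the median was 0.64 in set A and 0.30 in set B, and for those higher in set A it was 0.34 and 0.57, so in each direction the samples at the lower level were the more variable ones. Among the 155 members lower in set A, denervated 1 was the highest sample of set A for 87 and normal 2 the lowest for 79. The most uneven members of this kind were lncRNA4857 and lncRNA4965. LncRNA4857 (mouse NR_038180) was at 10.003 in denervated 1, 8.58 in denervated 3 and 5.01 in normal 2, and between 10.24 and 10.72 in set B. LncRNA5042 (ENSRNOT00000044531, chromosome X) was the most uneven in set B, where denervated 2 was at 6.41 and normal 1 and normal 3 were at 11.60 and 11.57, beside 11.99 to 12.54 in set A. For such probes most of the difference between the means came from 1 sample. These probes, and those named below that are neither among the largest nor named by RefSeq, were picked with their values known.

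The smallest distance between any sample of set A and any sample of set B had a median of 1.53 over the members. It exceeded 1 in 150 members and 2 in 49. At the other extreme, lncRNA2837 (ENSRNOT00000040218) was at 10.60 in denervated 1 and 10.64 in denervated 2, a distance of 0.04. Only 1 member reached the top of the array's scale. LncRNA5738 (mouse NR_038088) was at 15.53, 15.99 and 15.99 in denervated 1, denervated 3 and normal 2 and at 14.67, 12.28 and 14.02 in denervated 2, normal 1 and normal 3, and 15.99 was also the highest value of any lncRNA. Since a level cannot exceed the top of the scale, its difference is given as at least 2.18.

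The members came from every annotation class of the array in about the share of that class. Of the 2963 probes matched to mouse lncRNAs with all 6 values at or above 5, 105 (3.54%) were members, 19 higher and 86 lower in set A. Of the 1536 rat Ensembl transcripts 54 (3.52%) were members, of the 1131 predicted RefSeq transcripts 33 (2.92%), and of the 333 curated RefSeq transcripts 8 (2.40%). Members made up 3.35% of all 5963. The split by direction was 14 higher and 40 lower for Ensembl, 8 and 25 for predicted RefSeq, and 4 and 4 for curated RefSeq transcripts.

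A single position was annotated for 158 members, 80 on the plus and 78 on the minus strand, beside 2319 and 2124 among the lncRNAs with all 6 values at or above 5. Members were found on every numbered chromosome and on X. Their share ran from 2 of 130 on chromosome 11 (1.54%) to 11 of 208 on chromosome 8 (5.29%), chromosome 1 held 25 of 565 and chromosome X held 6 of 229. Chromosomes 9, 10, 18, 19 and 20 held only members that were lower in set A, with 7 on chromosome 10 and from 2 to 4 on each of the others. The annotated stretch of the mouse-matched members had a median of 7131 bases beside 5311 for the class, and that of the Ensembl members 746 beside 680. Mouse-matched stretches of at most 200 bases, the size of small RNA genes and their precursors, numbered 10 among the members and 569 among all mouse-matched probes at this level. Of the 10, 9 were lower in set A, and lncRNA6105 (mouse NR_029786, chr15:103641185-103641266) was higher, at 11.89, 12.33 and 12.13 in denervated 1, denervated 3 and normal 2 and at 10.42, 9.89 and 9.74 in denervated 2, normal 1 and normal 3. A mouse accession gives no rat gene name here, and these are given by accession only.

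Some stretches of the genome carried several probes, and the values of such probes are described side by side. For 18 members another probe with all 6 values at or above 5 was annotated to the same strand with an overlap of at least 50% of the longer stretch. Of these, 16 were set against 21 probes that were not members, in 32 pairs, and lncRNA6472 and lncRNA4274 had only each other. The other probe had the same sign in 15 pairs and the other sign in 17. It was divided in the same direction in 5 pairs, divided in the opposite direction in 8 and not divided in 19. All 16 members were lower in set A. Of all 5963 lncRNAs, 16.0% were divided lower and 23.0% higher in set A. The counts of pairs lay near these shares, so nothing about shared stretches is read from them. The non-member probes had a median absolute difference of 0.76 and at most 1.89, while the 16 members had a median of 2.54. Choosing the members by size makes them larger than their neighbours, so the sizes carry no comparison. The signs carry none either. Other probes that were members themselves were left out of the pairs, and the median signed difference over all 5963 lncRNAs was 0.21. Several of the pairs share a probe or a locus and are not independent.

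At chr4:142799904-142828926 on the plus strand, 2 members matched to different mouse records divided the samples in opposite directions. LncRNA6472 (mouse NR_015597) was at 10.70 in denervated 1, 11.86 in denervated 3 and 10.85 in normal 2, and at 6.31 in denervated 2, 9.23 in normal 1 and 8.77 in normal 3. LncRNA4274 (mouse NR_027808), annotated to the same stretch plus 1 base, was at 6.34, 8.26 and 7.85 in set A and at 9.63, 10.85 and 10.78 in set B in the same order of samples. The first was 3.03 higher in set A and the second was 2.93 lower in set A. In both probes denervated 1 was the lowest sample of set A and denervated 2 the lowest sample of set B.

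Elsewhere, 2 members of the same stretch agreed in direction, and the other probes there went both ways. At chr2:278774424-278779821 on the minus strand, lncRNA6573 (-3.67) and lncRNA2984 (-2.45) were both lower in set A, while lncRNA4501, annotated to exactly the stretch of lncRNA6573, was divided the opposite way (1.54), and lncRNA3697 (-0.76) and lncRNA385 (0.53) were not divided. LncRNA6573 itself was at 9.05, 9.19 and 9.14 in denervated 1, denervated 3 and normal 2 and at 12.61, 12.99 and 12.80 in denervated 2, normal 1 and normal 3, and lncRNA4501 was at 10.70, 11.25 and 11.07 and at 9.32, 10.64 and 8.45. The levels of lncRNA4501 in set A were all above those in set B, with normal 1 nearest. At chr4:224693585-224697167 on the minus strand, lncRNA579 (-2.73) and lncRNA384 (-2.09) were lower in set A. Of the other probes of that stretch, lncRNA1723 (-1.84) and lncRNA316 (-0.82) were divided the same way and lncRNA4443 (1.29) the opposite way, and lncRNA1264 (-1.39), lncRNA6237 (-0.54) and lncRNA3904 (0.46) were not divided. At chr1:142185950-142220280 on the plus strand, lncRNA2813 (-2.62) and lncRNA5982 (-2.23) were both lower in set A. The other probes of that stretch, lncRNA2269 (0.72) and lncRNA2229 (0.12), were not divided.

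**Figure D4:**
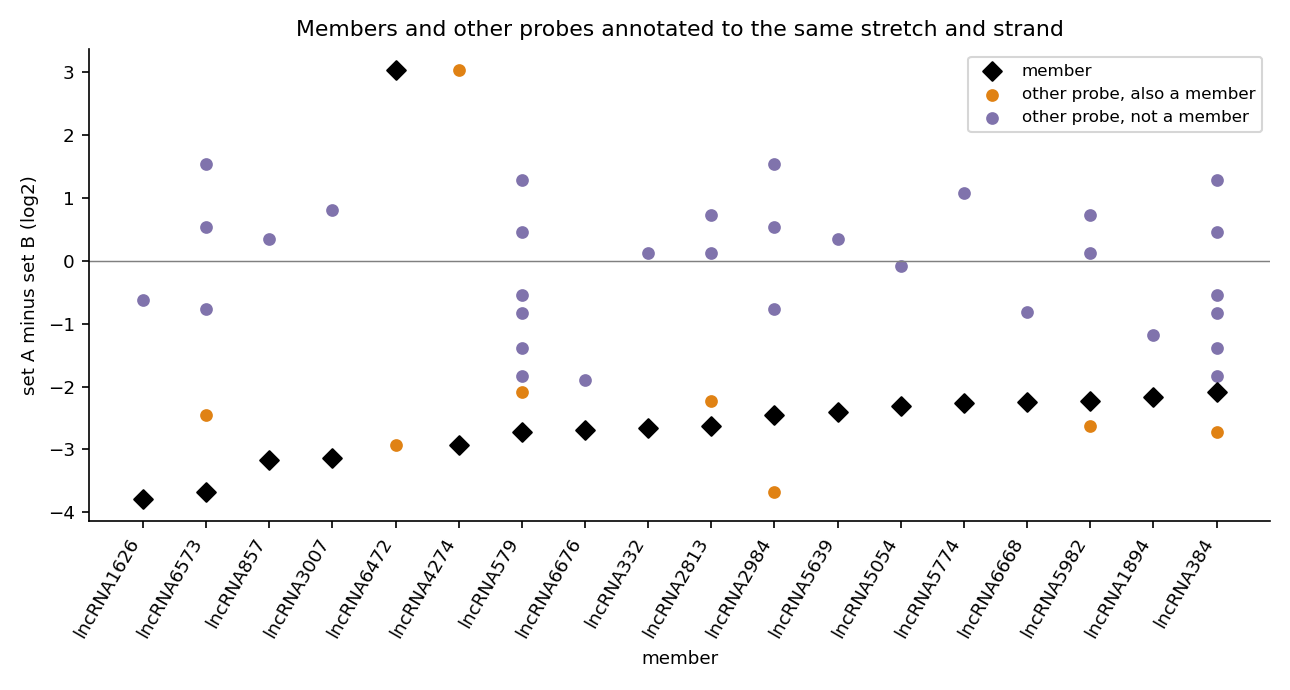
Difference between the means of set A and set B (vertical axis, log2) for the 18 members that share a stretch and strand with another probe (black diamonds) and for the other probes there, members in orange and non-members in purple, 1 column per member. The non-member probes lie on both sides of 0, with 15 of 32 pairs on the member's side.

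A run of neighbouring members lay on the minus strand of chromosome 1. LncRNA894 (mouse NR_033261, -2.22), lncRNA4612 (mouse NR_001592, -2.23) and lncRNA1519 (mouse NR_030251, -2.14) followed each other between 222553814 and 222726979, with 69781 and 83408 bases between them, and all were lower in set A. LncRNA4612 was at 13.21, 12.61 and 12.55 in denervated 1, denervated 3 and normal 2 and at 15.06, 15.01 and 14.99 in denervated 2, normal 1 and normal 3. LncRNA1519 was at 14.84, 11.35 and 13.15 and at 15.13, 15.32 and 15.32 in the same order. The spread within set A was small for lncRNA4612 and wide for lncRNA1519, where denervated 1 came within 0.29 of set B.

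The study's own comparison, which asks which lncRNAs respond to the loss of FF input, was then examined for the members. Set A holds 2 denervated samples and 1 normal sample and set B holds 1 denervated and 2 normal samples, so a member's difference between the sets enters its difference between denervated and normal with a weight of 33.3%. By the rule, 0 members have denervated and normal samples that do not overlap, beside 3.37% (higher after denervation) and 2.53% (lower) of all 6716 probes, and nothing is read from this count. The study's methods name both a rank product test, for the p-values, and limma; the rank product test was not run here and the p-values are from limma. At the thresholds of the methods (absolute log2 fold change above 1 and unadjusted p below 0.05), with the limma p, 0 members were higher and 0 were lower after denervation, beside 1.04% and 0.298% of all 6716 probes. At a Benjamini-Hochberg adjusted p below 0.05 in limma there were 0 members, beside 0.0149% of all probes, which is 1 probe. At an unadjusted p below 0.05 there were also 0 members, beside 1.97%, and by the methods' t-test, which they name for their statistics in general, there were 0 as well. The samples of a group lay on both sides of the division in every member, which widens the spread within each group, so these counts follow in part from the rule.

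The mean difference between denervated and normal samples exceeded 1 in 24 members with the higher mean in denervated and in 33 with the lower. The shares were 8.06% and 4.02% of all probes, which include those with values under 5. Of the 5963 lncRNAs with all 6 values at or above 5, 177 and 102 did so. Of the members, 23 of the 24 were among the 45 higher in set A and 32 of the 33 among the 155 lower in set A. The weight of the sets favours this. The median difference was 1.03 for the members higher in set A and -0.63 for those lower in set A, beside 0.00 over all 5963 lncRNAs. The lowest limma p of any member was 0.0737, for lncRNA3451 (XR_145928.1), with an adjusted p of 0.9999. It was at 6.62 in denervated 1, 8.96 in denervated 2 and 6.33 in denervated 3, and at 9.39 in normal 1, 8.16 in normal 2 and 9.77 in normal 3. Denervated 2 lay inside the range of the normal samples, and the difference was -1.80 with a standard error of 0.83. An exact permutation test gave a two-sided p of 0.2 for it, where 0.1 is the smallest that 3 against 3 samples can give. LncRNA4662 had the largest mean difference, 2.60 with a standard error of 1.80, and limma gave an unadjusted p of 0.199, which did not pass.

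**Figure D5:**
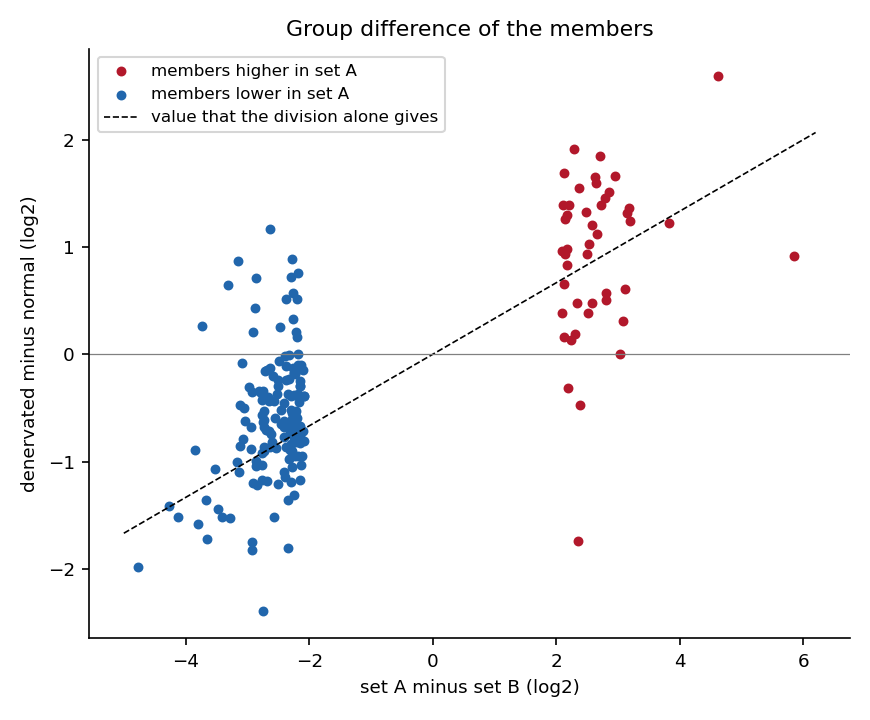
Difference between denervated and normal means (vertical axis, log2) against the difference between the set A and set B means (horizontal axis, log2) of the 200 members, with a dashed line at 33.3% of the set difference, the value that the division alone gives. Members scatter widely around the line, and the median is 1.03 for members higher in set A and -0.63 for those lower in set A.

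Within a set the difference between the sets cancels, but the rule keeps the sets apart and so limits how far samples of a set can differ. The denervated and normal samples of each set were compared as values, since a side always had 1 sample. In set A (denervated 1 and 3 against normal 2), the members higher in set A had a median difference of -0.22, and 12 of the 45 had the higher value in denervated. The members lower in set A had a median of 0.36, and 100 of the 155 had the higher value in denervated. In set B (denervated 2 against normal 1 and 3), the medians were 0.37 and 0.15, with 29 of 45 and 90 of 155 above 0. The sign was the same in both sets for 107 of the 200 members, beside 3518 of the 5963 lncRNAs and 1256 of the 2327 divided ones. Only lncRNA3637 and lncRNA1888 (mouse NR_033577, chr7:118893872-118965681) differed by more than 1 in the same direction in both sets, with denervated above normal by 2.06 in set A and 1.33 in set B for lncRNA3637 and by 1.72 and 1.08 for lncRNA1888. Of all 5963 lncRNAs, 81 did so, and of the 2327 divided ones 4 did, so these counts follow in part from the rule. None of the 20 lncRNAs that the study named by number was a member or was divided between the sets. Of the 5963 lncRNAs, 3.35% were members and 39.0% divided. The study took the 20 from lncRNAs that differed between denervated and normal samples. Such a choice works against a division that mixes these groups, so nothing is read from this count.

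Transcripts that mark cell types or are imprinted were looked up in 11 lists of 75 symbols, which did not include Mir409. Symbols were assigned to rat RefSeq probes only, so the 3356 mouse-matched probes and the Ensembl probes could not match a list. Whether any of them measures a listed gene was not examined. Of the 75 symbols, 29 had a rat RefSeq probe. Of these probes, 0 were members and 9 were divided between the sets. The 0 covers rat RefSeq probes only, and a listed gene may be a member through another probe. Among the 5963 lncRNAs, 3.35% were members and 39.0% divided, so with 29 probes neither count is a result about the lists. The choroid plexus and ependyma list had 2 measured genes, both divided and in opposite directions. Mir211 was at 10.84 in denervated 1, 10.27 in denervated 3 and 10.25 in normal 2 and at 12.01, 12.52 and 12.49 in denervated 2, normal 1 and normal 3, a difference of -1.89, while Mir204 was 0.91 higher in set A. The summed linear intensity of the list was 3317 to 4179 in set A and 5230 to 7296 in set B. The part of such cells in the result was not tested.

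Among the imprinted transcripts, Nnat, which encodes the neuronal membrane protein neuronatin, was at 14.47, 14.54 and 14.44 in denervated 1, denervated 3 and normal 2 and at 13.62, 13.35 and 13.24 in denervated 2, normal 1 and normal 3, a difference of 1.08. The summed intensity of this list was 39906 to 43175 in set A and 22585 to 26247 in set B. It rested on the rat RefSeq probes of Nnat and H19 (0.50, divided too). Mouse-matched probes were not assigned to genes, so other probes of these genes may exist and may differ in direction. Of the neuronal list, Mir138-2 (1.09) and Mir128-1 (0.78) were higher and Mir9-3 (-1.75) was lower in set A, all 3 divided, out of 10 measured. Of the 3 measured genes of the endothelium and smooth muscle list, Mir145 (-2.06) was divided, and Mir143 (0.55) and Mir126a (-0.09) were not. Rpph1, the RNA of ribonuclease P (0.42), was divided as well. Mir145 lay at 9.36, 7.70 and 5.88 in set A and at 9.95, 9.45 and 9.72 in set B in the order of samples used above, just short of the members' limit. In the microglia and leukocyte list 0 of 3 measured genes were divided.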

How the data were processed

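The deposited values were log2 normalized intensities per probe, which the authors made from GenePix 4000B scans of Cy5-labelled cDNA with a 50% scaling method. The members and the gene lists were chosen with earlier results of these data known. Denervated and normal samples (n = 3 each) were compared over all 6716 probes with limma (version 3.58.1, run under R 4.3.3) without a trend or block and with Benjamini-Hochberg adjustment, which the study's methods name beside a rank product test not run here, and other values were computed in Python 3.11.15. The fit was tested on simulated data. The array has no read depth, and the number of arrays limits the precision. In the study's supplement, RNA integrity was higher in each treated sample than in any normal sample. Its part in the comparison of these groups was not tested. The text names the 10 largest members in each direction, the members with a RefSeq symbol and the edge of the ranking, and a few others picked with their values known. RefSeq tables (GRCr8) named 388 of 1672 RefSeq transcript probes. A second value table matched for all 6716 probes (largest difference 5e-09). Lists with the authors' own fold changes were not used. Labels state that raw data of a pair of samples share a table without naming the samples, so slide could not be examined as a batch. Alternatives covered normalization, the rule's minimum level and ranking, the variance model, the filter, the test, a replicate block and leaving out samples.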

Additional observations from a re-analysis of the deposited data

How the results depend on the processing

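All 200 members stayed divided in the same direction after quantile normalization, centring on array medians, cyclic loess (added after seeing the data) and in the second value table. The second table held the same values and the array medians were nearly equal before centring, so those outcomes were all but fixed in advance. Drawn again by the same rule, 200 lncRNAs shared 175 with the members after quantile normalization, 199 after centring, 167 after loess, 138 when ranked by the gap, 155 by medians and 178 by linear means, but only 102 with a minimum level of 8 and 31 with no minimum. The split, 45 higher and 155 lower in set A, became 66 and 134 with no minimum, 22 and 178 with a minimum of 8 and 26 and 174 after loess. The difference of lncRNA854 became 4.47 and that of lncRNA272 3.84 after quantile normalization, and 25 others of the 27 largest or RefSeq-named members moved by less than their spread; the further members named were not followed singly. For denervated against normal at the methods' thresholds, 1 member was higher among the brighter 50% of probes and 1 with an intensity trend. Leaving out 1 sample gave 0 to 18 higher and 0 to 15 lower members, with 18 and 15 without normal 2 and 1 and 8 without denervated 2, while 0 passed an adjusted p below 0.05 in limma in each. Without denervated 3 and normal 2 together, 12 were higher and 2 lower. Leaving out normal 2 or denervated 2 takes from a group the sample that the rule sets apart from it, so the counts follow from the rule. Leaving out 1 sample moved the median difference between 0.44 (without normal 1) and 2.01 (without normal 2) for the members higher in set A and between -1.49 (without denervated 2) and -0.12 (without denervated 3) for those lower. With the replicate number as a block, 0 members were higher and 0 lower and the medians stayed at 1.03 and -0.63. The same-numbered samples did not deviate together (correlations -0.05, -0.52 and -0.35). Each such pair lies on opposite sides of the division, which favours negative values. The correlations therefore cannot show whether these samples shared a rat, and the block is by number only.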
